A study of Homo sapiens with 6 samples.

Results

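TRPV3 and 9 other sensory or mechanically gated cation channel genes (TRPV1, TRPV2, TRPV4, TRPV6, TRPM4, TRPM7, TRPC1, TRPA1 and PIEZO1) were followed in SZ95 cells, an immortalised line of human sebaceous gland cells. The members were chosen by gene name, and all 10 were found among the 58735 genes of the deposited table. One group of 3 libraries came from wild-type SZ95 cells transfected with a mock plasmid, and the other group of 3 from SZ95 cells transfected with a TRPV3 overexpression plasmid; the titles give 24 h for all. The design text names inflammation of sebocytes as the question and calls the replicates biological. The sources used here do not give the promoter of the plasmid, the TRPV3 form it carries or the share of cells that took it up.

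TRP channels are cation channels of the plasma membrane or of internal membranes that open in response to temperature, chemical ligands, lipids or voltage, and most of them let calcium into the cell. TRPV3 is opened by warmth and by plant compounds such as carvacrol and camphor, and is best known from skin keratinocytes. PIEZO channels are opened by membrane stretch. Calcium that enters through such channels acts on calmodulin and on calcium-dependent enzymes and transcription factors.

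Sequencing depth, summed over genes, was 16015998 to 18365785 reads per library. Levels are FPKM, that is, fragments divided by gene length in kilobases and by a measure of the depth of the library. Up to a constant, that measure equalled the median over genes of the library's reads relative to their geometric mean over libraries. It differed from the summed reads most in mock replicate 3 (4.78%) and TRPV3 replicate 1 (-3.93%). A pair of libraries stood apart. In TRPV3 replicate 1 the level fell with gene length: against the mean of its 2 group mates, the median tested gene was 0.32 higher on the log2 scale among genes under 2 kb and 0.33 lower among genes of 9 kb and over. Mock replicate 3 had a read in 34467 genes, where the other 5 libraries had one in 22311 to 23072. Of 12 sebocyte markers, 8 had a mean of at least 1 FPKM, among them KRT7, KRT19, FASN and SCD. None was called by limma in the TRPV3 comparison, where 0.0411% of all tested genes were. The wax synthase genes AWAT1 and AWAT2 and the melanocortin receptor gene MC5R lay between 0 and 0.0383 FPKM. Of 9 keratinocyte markers, 6 had a mean of at least 1 FPKM, led by SFN and KRT5. KRT14 was at 0.626 to 1.74 FPKM and TP63 at 0.281 to 0.527 FPKM. KRT1 lay between 0 and 0.0662 FPKM, and LORICRIN was at 0 in every library. The sum of the keratinocyte markers was 356 to 404 FPKM under mock. With the TRPV3 plasmid it was 383 to 491 FPKM, highest in TRPV3 replicate 1. The part of these markers in the results was not tested. The summed level was at most 0.281 FPKM for 5 sensory neuron markers, 1.80 for 6 leukocyte, 1.91 for 4 endothelial, 2.91 for 6 fibroblast and 5.16 for 5 melanocyte markers.

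The coding sequences show how far reads of the transfected gene can be told from those of its relatives. The longest TRPV3 coding sequence in GENCODE 29 has 2373 bases in 17 exons. None of its 2324 windows of 50 bases occurs letter for letter, on either strand, in an annotated transcript of another gene. Near matches were not counted, untranslated TRPV3 sequence was left out, and the window length was not taken from the reads. Over the bases that align without a gap, it is 58.1% identical to TRPV1 (2289 bases), 54.1% to TRPV2 (2175 bases), 59.3% to TRPV4 (2317 bases) and 49.8% to TRPV6 (2121 bases). The longest stretch shared letter for letter is 21 bases with TRPV1, 20 with TRPV2, 20 with TRPV4 and 12 with TRPV6. The pairs with TRPV1 and TRPV4 are shown because these are the closest relatives by identity; capitals mark the shared stretch and lower case its flanks of 20 bases, 5′ to 3′ on the coding strand, from GENCODE 29 transcripts on GRCh38. The first pair lies in exon 9 of TRPV3 (chr17:3530113-3530173, minus strand) and exon 7 of TRPV1 (chr17:3588277-3588337, minus strand).
TRPV3: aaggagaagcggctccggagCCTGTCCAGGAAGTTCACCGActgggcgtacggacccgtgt
TRPV1: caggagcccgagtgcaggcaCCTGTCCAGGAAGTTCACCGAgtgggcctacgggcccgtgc

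The other pair lies in coding sequence of exon 15 of TRPV3 (chr17:3518617-3518676, minus strand) and exon 13 of TRPV4 (chr12:109788441-109788500, minus strand). Here the flanks on both sides of the stretch are nearly the same as well.
TRPV3: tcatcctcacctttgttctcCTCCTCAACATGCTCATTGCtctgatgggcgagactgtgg
TRPV4: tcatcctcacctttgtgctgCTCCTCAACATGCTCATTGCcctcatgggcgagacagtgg

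The gene TRPV3 (ENSG00000167723) lies on the minus strand of chromosome 17, from 3510502 to 3557995 in hg38. It was a low gene with the mock plasmid and among the most abundant with the TRPV3 plasmid. The mock libraries held 75, 57 and 74 reads, or 0.437, 0.359 and 0.415 FPKM. The TRPV3 libraries held 92523, 117359 and 126249 reads, or 536, 671 and 738 FPKM. The groups were far apart, and TRPV3 replicate 1 was the lowest of its group. By FPKM the gene ranked 14644, 15370 and 15907 among all genes under mock and 58, 30 and 29 with the TRPV3 plasmid. The mean was 0.404 ± 0.0400 FPKM (SD, n = 3) against 648 ± 103 FPKM (SD, n = 3), a 1606-fold ratio of means.

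The TRPV3 log2 fold change of FPKM + 1 was 8.84 (95% interval 8.55 to 9.13, limma adjusted p = 2.7e-07). Permuting the libraries exactly (two-sided) gave p = 0.1 for the FPKM, the smallest value possible with 3 against 3 libraries. The gene passed the filter of a mean of 1 FPKM through the TRPV3 group alone, so its call checks the labels and is no further result. FPKM divides by all 9780 annotated exon bases. Divided by the coding bases instead, the same reads gave 1.80, 1.48 and 1.71 on the FPKM scale under mock and 2210, 2764 and 3041 with the TRPV3 plasmid. In bulk RNA, more cells carrying the plasmid and more TRPV3 RNA per cell cannot be told apart. SPATA22 shares 441 exonic bases with TRPV3 on the same strand and held 2 reads in mock replicate 3 and 0 in every other library.

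**Figure D1:**
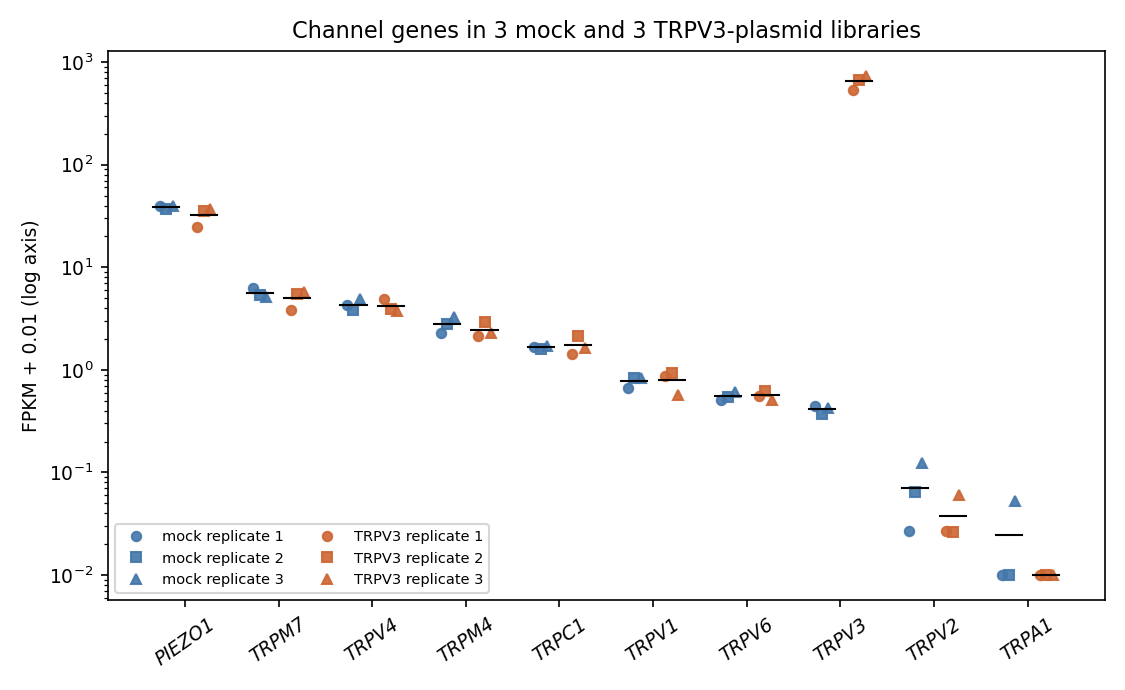
FPKM of the 10 channel genes in each library, plus 0.01, on a log axis, with mock libraries in blue, TRPV3-plasmid libraries in orange and black lines at the group means. TRPV3 moves from 0.404 to 648 FPKM on average, while the other genes keep their order of size and only PIEZO1 has groups that do not overlap.

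With the mock plasmid TRPV3 stood eighth of the 10 genes by FPKM, which is a level per length. PIEZO1 led at 38.7 ± 1.21 FPKM, followed by TRPM7 at 5.57 ± 0.657, TRPV4 at 4.32 ± 0.530, TRPM4 at 2.76 ± 0.487 and TRPC1 at 1.65 ± 0.0448 (SD, n = 3). TRPV1 at 0.763 ± 0.0984, TRPV6 at 0.546 ± 0.0490 and TRPV3 came next, and TRPV2 and TRPA1 were last. Each gene's 3 mock values lay above those of the next gene in this order, except that TRPV2 and TRPA1 overlapped. The place of TRPV1 is uncertain, because the counting of reads from exonic bases it shares with other genes is not given. With the TRPV3 plasmid TRPV3 came first, at 19.0 to 21.5 times the FPKM of PIEZO1. The order of the rest stayed, but the ranges of TRPM7 and TRPV4, of TRPM4 and TRPC1, and of TRPV1 and TRPV6 overlapped there.

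None of the other 9 channel genes was called. Of these, 5 passed the filter of 1 FPKM and 0 passed limma's adjusted test over all genes, where 5 of 12177 tested genes did (0.0411%); 0 of the 5 had an unadjusted p under 0.05, where 4.48% of all tested genes did. Their median log2 fold change was -0.13, against 0.01 for all tested genes. It was -0.06 without TRPV3 replicate 1 and -0.04 without mock replicate 3. By limma-voom on recovered reads, which tested 7 of the 9, 0 were called with all libraries (0.0401% of 14967 genes) and 0 without TRPV3 replicate 1 (0.514%).

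Among the thermosensitive TRPV channels, the relatives of TRPV3 stayed within the spread of the libraries. TRPV4, opened by warmth, cell swelling and lipid products, was at 4.29, 3.80 and 4.86 FPKM under mock and 4.89, 3.94 and 3.73 FPKM with TRPV3. The groups overlapped throughout, and its log2 fold change was -0.04 (95% interval -0.32 to 0.24, limma adjusted p = 0.906). Without TRPV3 replicate 1 it was -0.13, and without mock replicate 3 it was 0.03. TRPV1, the heat and capsaicin receptor, had 63, 73 and 83 reads with mock and 83, 92 and 54 reads with TRPV3. In FPKM these were 0.650, 0.815 and 0.825 against 0.852, 0.932 and 0.559, so that the highest and the lowest value both came from TRPV3 libraries.

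TRPV1 lay under the filter of 1 FPKM. With a filter of 0.1 FPKM its log2 fold change was 0.01 (95% interval -0.26 to 0.28, limma adjusted p = 0.987). The gene is the chromosomal neighbour of TRPV3, with 7448 bases between them, and lies on the same strand. AC027796.3, on the same strand, shares 1519 exonic bases with TRPV1 and 51.5% of the 50-base windows of its coding sequence. It had at most 2 reads in a library. SHPK, on the same strand, shares 242 exonic bases with TRPV1 and had 105 to 154 reads, more than TRPV1 in each library. How reads from such shared bases were counted is not given, so the TRPV1 reads may leave some of them out. Within 200 kb of TRPV3, chosen after the values were seen, 8 other genes were tested. Of these 8 genes, 0 were called by limma, where 0.0411% of all tested genes were. They ran from -0.03 for ITGAE to 0.43 for TAX1BP3 on the log2 scale (limma adjusted p = 0.927 and 0.755), and TAX1BP3 was at 0.20 and ITGAE at -0.17 without TRPV3 replicate 1.

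TRPV2, which is also gated by noxious heat in rodents, was close to the detection limit. It had 1, 3 and 7 reads with mock and 1, 1 and 3 reads with TRPV3. At these depths 3 reads of this gene correspond to 0.0483 to 0.0542 FPKM, so a difference was not detectable.

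TRPV6 is the calcium-selective channel of absorbing epithelia and is not a temperature sensor. It had 105, 104 and 130 reads with mock and 114, 131 and 105 reads with TRPV3, or 0.501 to 0.598 FPKM and 0.503 to 0.614 FPKM. The ranges nearly coincided. With a filter of 0.1 FPKM the log2 fold change was 0.01 (95% interval -0.19 to 0.20, limma adjusted p = 0.988). A small part of its coding sequence, 2.27% of the 50-base windows, also occurs in its near copy TRPV5 or in AC245427.1.

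TRPA1, the receptor for mustard oil and other irritants in sensory neurons, was at 0 reads in 5 libraries and at 5 reads in mock replicate 3. A count of 0 allows up to 3 reads, or 0.0258 to 0.0290 FPKM for this gene; this covers counting error only. The pattern of TRPA1 recurred in other channel genes. Of the 29 TRP and PIEZO genes described here, 15 had a mean under 0.1 FPKM. Of these 15, 14 had a read in mock replicate 3, against 3 to 6 in each other library, and 8 had reads there and nowhere else. Summed over the 15 genes there were 84 reads in mock replicate 3, and 17, 9, 6, 8 and 12 in the others. Over all genes, 9477 had reads in mock replicate 3 alone, against 355 to 459 for each other library. TRPC6 had no read in any library.

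**Figure D2:**
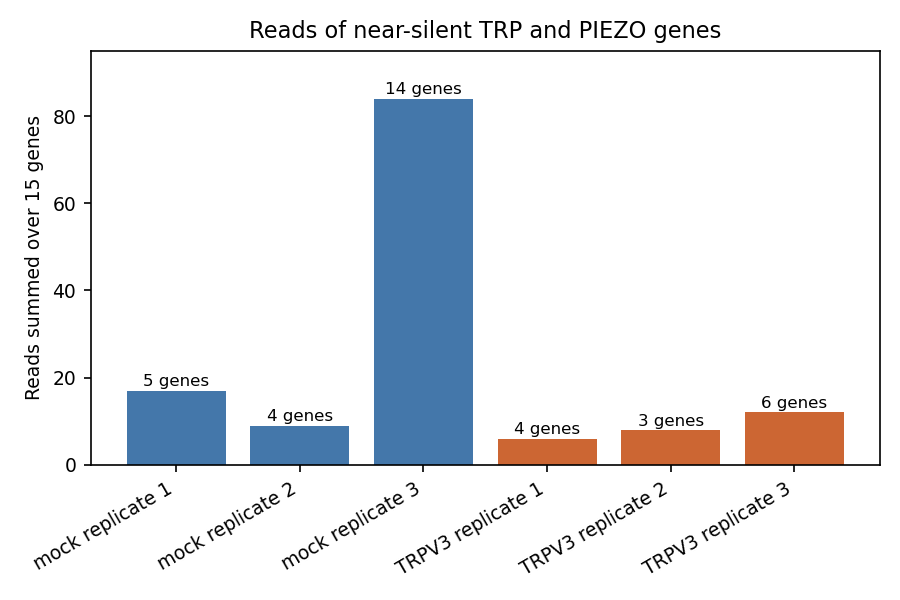
Reads summed over the 15 TRP and PIEZO genes with a mean under 0.1 FPKM, by library, with the number of these genes that had at least 1 read above each bar. Mock replicate 3 has 84 reads in 14 genes, and each other library between 6 and 17 reads.

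Of the 10 listed genes, the mechanically gated channel PIEZO1 was the most abundant with mock and the only one beside TRPV3 whose groups did not overlap. It was at 39.2, 37.3 and 39.5 FPKM under mock and 25.0, 35.3 and 37.0 FPKM with TRPV3. The distance came mainly from TRPV3 replicate 1; replicates 2 and 3 lay just below the mock range. Groups were apart with every TRPV3 library lower in 5.39% of tested genes, and with every TRPV3 library higher, as in TRPV3 itself, in 9.49%. The PIEZO1 log2 fold change was -0.27 (95% interval -0.61 to 0.08, limma adjusted p = 0.755). It was -0.09 (95% interval -0.21 to 0.02) without TRPV3 replicate 1. Removing the length trend of each library left -0.16.

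PIEZO1 is annotated with 11292 exonic bases. In TRPV3 replicate 1 it was 0.52 lower on the log2 scale than in the mean of the 2 other TRPV3 libraries, where the median of the 1686 tested genes of 9 kb and over was 0.33 lower. The part of gene length in the PIEZO1 difference was not tested. On the opposite strand AC138028.4 shares 1427 exonic bases with PIEZO1 and had at most 34 reads in a library, and CTU2 shares 49 and had at most 886.

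The TRPM and TRPC members did not pass the test either. TRPM7, a channel with its own kinase domain that carries magnesium and zinc as well as calcium, was at 6.31, 5.32 and 5.07 FPKM under mock and 3.80, 5.50 and 5.71 FPKM with TRPV3. TRPV3 replicate 1 was again the lowest, 0.46 below its group mates on the log2 scale, for a gene of 12398 exonic bases. The log2 fold change of TRPM7 was -0.14 (95% interval -0.49 to 0.21, limma adjusted p = 0.763), and 0.01 without that library. TRPM4, which is activated by calcium but carries sodium and potassium, was at 2.27, 2.77 and 3.24 FPKM under mock and 2.13, 2.90 and 2.28 FPKM with TRPV3.

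These TRPM4 ranges overlapped, and the difference was -0.13 on the log2 scale (95% interval -0.44 to 0.18, limma adjusted p = 0.762), with -0.06 without TRPV3 replicate 1 and -0.04 without mock replicate 3. TRPC1, a subunit of channels opened downstream of phospholipase C, was at 1.65, 1.60 and 1.69 FPKM under mock and 1.43, 2.14 and 1.62 FPKM with TRPV3. The TRPV3 libraries spread on both sides of the narrow mock range. The log2 fold change of TRPC1 was 0.04 (95% interval -0.24 to 0.31, limma adjusted p = 0.913), and 0.12 without TRPV3 replicate 1. The p-values that miss the threshold do not show that these genes were equal in both groups; of these intervals, that of PIEZO1 reached farthest from 0, to -0.61 on the log2 scale.

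**Figure D3:**
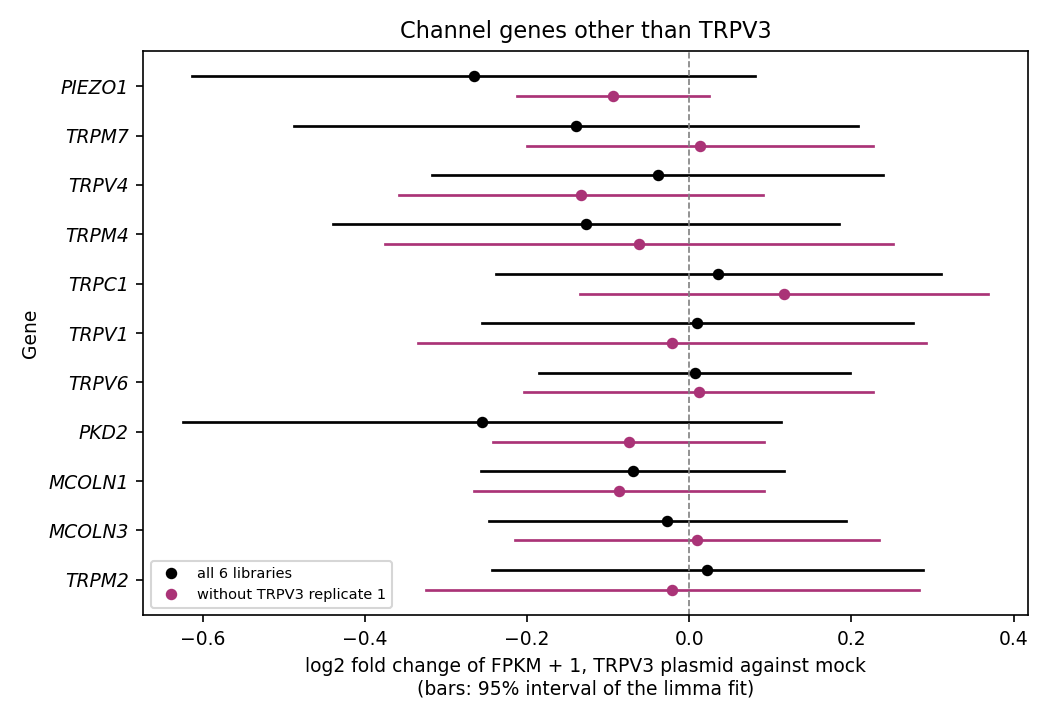
Fitted log2 fold change (points) with its 95% interval (bars) for 11 channel genes other than TRPV3, with all 6 libraries in black and without TRPV3 replicate 1 in purple; TRPV1, TRPV6 and TRPM2 come from the fit with a filter of 0.1 FPKM. All intervals shown include 0, and PIEZO1 moves from -0.27 to -0.09 without that library.

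The rest of the TRP superfamily and PIEZO2, 19 genes taken whole, was low or near-silent. Only 3 passed the filter of 1 FPKM. By limma 0 were called, where 0.0411% of all tested genes were, and 0 had an unadjusted p under 0.05, where 4.48% did. By limma-voom 0 were called with all libraries (0.0401% of all genes in that fit) or without TRPV3 replicate 1 (0.514%). The median log2 fold change of the 3 genes by limma was -0.07. The most abundant was PKD2, a channel subunit of primary cilia and the endoplasmic reticulum, at 5.56 ± 0.281 FPKM under mock and 4.58 ± 1.16 FPKM with TRPV3 (SD, n = 3). Its log2 fold change of -0.26 was -0.07 without TRPV3 replicate 1, which had 318 reads against 488 and 529 in its group mates. Removing the length trend of each library left -0.25 for PKD2. The lysosomal channel MCOLN1 was at 3.04 ± 0.0999 and 2.85 ± 0.170 FPKM, its relative MCOLN3 at 1.64 ± 0.0725 and 1.60 ± 0.184 FPKM, and TRPM2, which is opened by ADP-ribose, at 0.869 ± 0.212 and 0.892 ± 0.120 FPKM (SD, n = 3).

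Summed over these 19 genes and the 9 channel genes beside TRPV3, the level was 67.3, 64.3 and 68.4 FPKM under mock and 48.1, 62.6 and 63.7 FPKM with TRPV3. Every TRPV3 library lay below every mock library, with TRPV3 replicate 1 far below and the other 2 close (exact two-sided permutation p = 0.1, the smallest possible). PIEZO1 makes up more of this sum than all the other genes together. TRPV3 made up 0.645%, 0.556% and 0.603% of the summed FPKM of the whole family under mock and 91.8%, 91.5% and 92.1% with the TRPV3 plasmid.

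Proteins that bind or regulate TRP channels were read out from a list of 26 genes, of which 24 were tested. By limma 0 were called, where 0.0411% of all tested genes were. Of the 24, 13 lay above 0 and 11 below, and the median was 0.01, the same as over all tested genes. At an unadjusted p under 0.05 there was 1 of the 24, where 4.48% of all tested genes passed: ANXA2, which with S100A10 brings TRPV5 and TRPV6 to the membrane. ANXA2 was at 319 ± 9.48 FPKM under mock and 398 ± 63.1 FPKM with TRPV3 (SD, n = 3; log2 fold change 0.31, limma adjusted p = 0.755), and S100A10 at 365 ± 33.9 and 461 ± 110 FPKM (0.32, limma adjusted p = 0.755). Both were highest in TRPV3 replicate 1; without it ANXA2 was at 0.18 and S100A10 at 0.13 on the log2 scale. Groups were apart with every TRPV3 library higher in 5 of the 24 genes and lower in 1, against 9.49% and 5.39% of all tested genes.

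Calmodulin, the calcium sensor that binds many TRP channels, is encoded by 3 genes. CALM2 was at 80.8 ± 4.38 and 98.0 ± 17.9 FPKM and CALM3 at 77.8 ± 1.78 and 78.5 ± 1.21 FPKM (SD, n = 3), with log2 fold changes of 0.26 and 0.01. Without TRPV3 replicate 1 they were 0.12 and 0.02. By limma-voom without TRPV3 replicate 1, 1 of the 25 genes it tested in the list was called, against 0.514% of all genes in that fit: TGFA, a ligand of the EGF receptor, with which TRPV3 forms a signalling complex in keratinocytes. TGFA, named after its values were seen, had 2029, 1973 and 2023 reads with mock and 1981, 2595 and 2482 reads with TRPV3. In that fit its log2 fold change was 0.31 (limma-voom adjusted p = 0.0260), and limma without the same library gave 0.30 (limma adjusted p = 0.178), which did not pass. With all libraries it was 0.18 by limma (adjusted p = 0.755) and 0.19 by limma-voom (adjusted p = 0.749).

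**Figure D4:**
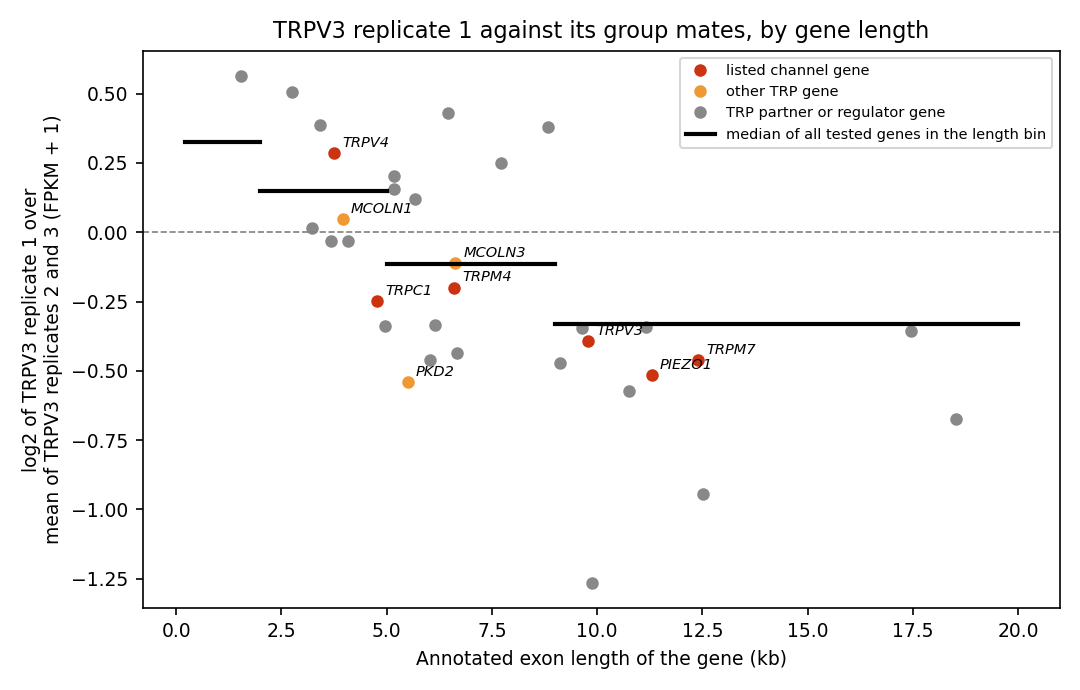
TRPV3 replicate 1 against the mean of TRPV3 replicates 2 and 3 (log2 of FPKM + 1, vertical axis) by annotated exon length in kb (horizontal axis) for the tested channel genes (red, orange) and partner or regulator genes (grey), with black lines at the median of all tested genes in 4 length bins. The medians run from 0.32 under 2 kb to -0.33 at 9 kb and over. Among the red and orange genes PKD2, with 5.50 kb, is the lowest (-0.54), followed by PIEZO1 (-0.52), TRPM7 (-0.46) and TRPV3 (-0.39). Of the same genes, TRPV4 (0.28) and MCOLN1 (0.05) lie above 0.

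Other long genes of the list were low in the same library, and not all genes lay near the median of their length. EGFR, the receptor for TGFA, was 0.95 lower in TRPV3 replicate 1 than in its group mates on the log2 scale, and ITPR3, an inositol trisphosphate receptor that releases stored calcium, was 1.26 lower, both far past the median of genes of 9 kb and over. ANXA2, with 8.82 kb, was 0.38 higher there and CALM2, with 6.47 kb, 0.43 higher, where the median gene of 5 to 9 kb was 0.11 lower. EGFR and ITPR3 were named after their values were seen, and the part of length in these differences was not tested. Over all tested genes of 9 kb and over, the median log2 fold change between the groups was -0.11, and it was -0.000104 without TRPV3 replicate 1. Among tested genes under 2 kb the same medians were 0.13 and 0.02.

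The genes whose levels were most like TRPV3 were ranked over the 6 libraries by Pearson's r of log2(FPKM + 1), among 230 tested genes with a log2 fold change of at least 0.5 in either direction. These values describe the libraries, which fall into the 2 transfected groups, so r follows mainly the difference between them. The heat-inducible chaperone gene HSPA6 came first (r = 0.996), followed by the protease inhibitor gene SERPINB2 (0.991), the interferon-induced IFIT2 (0.990), the AP-1 subunit gene FOSL1 (0.984) and the chemokine gene CXCL8 (0.983). IFIT2 and FOSL1 were not called (limma adjusted p = 0.0895 and 0.0605). HSPA6, SERPINB2 and CXCL8 were (limma adjusted p = 7.1e-05, 0.0214 and 0.0146), against 0.0411% of all tested genes. All of them were picked for their difference between the groups. HSPA6 was at 0.792, 0.728 and 0.602 FPKM under mock and 12.6, 10.4 and 11.1 FPKM with TRPV3. Among the TRPV3 libraries it did not follow the order of TRPV3 itself, which was lowest in replicate 1.

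At the opposite end stood the antisense RNA AL031670.1 (r = -0.966). Its 1.87, 1.93 and 1.97 FPKM with mock faced 1.10, 0.919 and 0.684 FPKM with TRPV3. Of the listed channel genes that were tested, r was -0.58 for PIEZO1, -0.39 for TRPM4, -0.35 for TRPM7, -0.17 for TRPV4 and 0.17 for TRPC1.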

How the data were processed

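RNA of 6 SZ95 libraries, 3 per group, was sequenced; per the labels, NEBNext Ultra kits were used on TRIzol RNA. HISAT2 2.0.5 and hg38 are named in the submitters' processing notes. The sources used here do not give the counting tool or its use of strand, so genes overlapping on opposite strands cannot be told apart. Nor do they say how reads from bases shared by overlapping genes of the same strand were counted. The authors deposited FPKM per gene, with gene lengths that equal merged exon lengths of GENCODE 29 in all 58735 genes. FPKM times length gave whole reads for 100% of values (tolerance 0.02 reads). Replicates of a group differed beyond sampling noise (chi-square per degree of freedom 2.52 to 54.2).

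Genes whose mean reached 1 FPKM were tested as log2(FPKM + 1), which understates changes of low genes, with limma 3.58.1 (R 4.3.3), a trended prior variance and p-values adjusted over all of them (Benjamini-Hochberg); called means an adjusted p under 0.05. Adjusted p-values with no other setting named come from that fit. Limma-voom used recovered reads, genes with a mean of at least 10 and the authors' divisor. Alternatives were the pseudocount, filters, scalings, no trend, removal of a length trend (lowess, span 0.3), the replicate block and each library left out. Sequences were aligned with MAFFT 7.526; figures used Python 3.11.15 and matplotlib 3.10.9.

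The members, lists and tests were chosen with earlier results of these data known. All members are described; of the other lists, called genes (up to 6 partners) and the 4 highest by mean FPKM. Likeness to TRPV3 named the 5 highest r and the lowest.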

Additional observations from a re-analysis of the deposited data

How the results depend on the processing

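TRPV3, the transfected gene, was called under every alternative, which checks the labels only. Its log2 fold change was 8.74 to 10.76 on unlike scales, with 10.3 at a pseudocount of 0.1 and 10.6 by limma-voom with all libraries. No other listed channel gene and no other TRP or PIEZO gene was called under any alternative tried; of 309 values for 16 named channel and partner genes, only that of TGFA by limma-voom without TRPV3 replicate 1 passed the threshold, making 1 partner gene called. Genes called over all genes were 2 without a filter, 3 with a filter of 5 FPKM, 77 by limma-voom without TRPV3 replicate 1, 10 without that library and mock replicate 3 together (added after seeing the data), and 2 to 8 with 1 library left out, where all 6 libraries gave 5. With the replicate block 3 were called by limma and 2 by limma-voom. The replicate numbers were not treated as pairs because no pairing is stated. Same-numbered libraries deviated from their group means with r of -0.27, -0.04 and -0.17. Deviations within a group of 3 libraries depend on each other, so these values cannot show whether the libraries were paired. The cause of the changes in the number of called genes was not tested.

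Log2 fold changes near 0 changed sign in 31 of the 309 values. Under TPM scaling they were -0.062 for TRPV1, -0.052 for TRPV6, -0.037 for TRPC1, -0.036 for TRPM2 and -0.085 for CALM3. The scaling moved the median of all genes tested at 1 FPKM as well, from 0.012 to -0.079 with TPM and to -0.028 with total reads. Under total read scaling they were -0.012 for TRPV1, -0.011 for TRPV6, -0.00219 for TRPM2 and -0.036 for CALM3, and CALM3 was -0.12 under quantile normalization. By limma-voom without TRPV3 replicate 1 they were -0.067 for TRPV1, 0.017 for TRPM7, 0.016 for MCOLN3 and -0.045 for TRPM2. With the length trend removed MCOLN3 was 0.00886 and CALM3 -0.040. With 1 library, or mock replicate 3 and TRPV3 replicate 1, left out, the ranges that crossed 0 were -0.052 to 0.10 for TRPV1, -0.13 to 0.034 for TRPV4, -0.021 to 0.036 for TRPV6, -0.22 to 0.029 for TRPM4, -0.23 to 0.014 for TRPM7, -0.071 to 0.13 for TRPC1, -0.084 to 0.0097 for MCOLN3, -0.027 to 0.11 for TRPM2 and -0.0044 to 0.038 for CALM3. TRPV1, TRPV6 and TRPM2 were fitted with a filter of 0.1 FPKM. Depth limits TRPV2, TRPA1 and the other near-silent genes, for which 3 reads decide the value.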

Other observations

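Further genes of channel or channel-related families were read from a list of 26 genes chosen after the data were seen. They were TMEM63, TMC, KCNK, ASIC, ANO and LRRC8 genes with TMEM120A and TMEM87A. Of these, 15 were tested and 0 were called by limma, where 0.0411% of all tested genes were. By limma-voom 0 were called with all libraries (0.0401% of all genes in that fit) or without TRPV3 replicate 1 (0.514%). The median log2 fold change of the 15 genes by limma was -0.03, or 0.02 without TRPV3 replicate 1. LRRC8A, the essential subunit of the volume-regulated anion channel, was the most abundant, at 107 ± 6.02 FPKM under mock and 107 ± 14.7 FPKM with TRPV3 (SD, n = 3), above PIEZO1 in level per length. ASIC1, an acid-sensing sodium channel, was the only one with an unadjusted p under 0.05, which 4.48% of all tested genes had; none had it without TRPV3 replicate 1 or without mock replicate 3. ASIC1 was at 5.75 ± 0.275 and 4.91 ± 0.350 FPKM with no overlap between groups, a log2 fold change of -0.19 (95% interval -0.38 to -0.00208, limma adjusted p = 0.755). Groups were apart in 4 of the 15 genes, lower with TRPV3 in ASIC1, TMEM63C and ANO10 and higher in KCNK1, against 5.39% of all tested genes lower and 9.49% higher.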
